A study of Mus musculus with 2 samples.

Results

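The connexin genes Gja1, Gjb6, Gjb2, Gjd2 and Gjc3 were examined in single-nucleus chromatin accessibility (scATAC-seq) data from mouse brain, 5 of the 21911 protein-coding genes of the annotation. In scATAC-seq the Tn5 transposase cuts DNA where chromatin is open, and the fragments from a nucleus share that nucleus's barcode. A gene's level is the number of fragments over its body plus 2 kb upstream, per 1000000 fragments of the same nuclei (CPM). Such a level measures open chromatin, not RNA or protein. The sham library came from the brains of 4 wild-type young adult male C57BL/6J mice whose artery received the filament without sustained occlusion. The stroke library came from the ipsilateral hemispheres of 4 such mice after filament occlusion of the middle cerebral artery with reperfusion (MCAO/R). Tissue of both groups was taken at 48 h, without olfactory bulbs and cerebellum, flash frozen and pooled, so each group was 1 library and no comparison between them had a replicate. Whole sham brains were set against single stroke hemispheres, and this difference in tissue cannot be told apart from the effect of surgery.

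The sham library held 76959104 fragments and the stroke library 96465679. Barcodes that Cell Ranger ATAC called cells were kept where over 20% of their fragments lay in peaks, which left 6817 of 6979 sham barcodes and 5054 of 8740 stroke barcodes. The filter thus kept 97.7% of sham and 57.8% of stroke barcodes. The kept nuclei had a median of 10356 fragments in sham and 9898 in stroke, and 42 barcode sequences were kept in both libraries. Their median share of fragments in peaks was 38.8% in sham and 33.2% in stroke. Of all their fragments, 16.3% in sham and 14.8% in stroke lay within 1 kb of a gene start. No class labels from the study were used. A nucleus was put in a class when its fragments over a marker list, which held no connexin, were at least 2-fold above the mean of all kept nuclei of both libraries, and 7988 of the 11871 kept nuclei stayed ungated. The median share in peaks was 52.5% in sham and 51.5% in stroke astrocyte-gated nuclei. It was 38.0% and 30.8% in myeloid-gated, 37.8% and 32.5% in striatal projection neuron-gated and 38.9% and 32.7% in ungated nuclei. The part of this share in the ratios between libraries was not tested.

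Connexins form the channels of gap junctions. Each connexin spans the membrane in 4 passes, and hexamers from neighbouring cells dock to join their cytoplasm. Astrocytes are coupled into networks through Cx43, the protein of Gja1, and Cx30, the protein of Gjb6, which pass potassium, metabolites and signals between cells. Cx26, the protein of Gjb2, is known from astrocytes and from the meninges. Cx36, the protein of Gjd2, forms the electrical synapses of neurons, above all between interneurons. Cx29, the protein of Gjc3, is found in oligodendrocytes and Schwann cells.

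Gjb6 and Gjb2 are neighbours on chromosome 14, both on the minus strand, at chr14:57123303-57133611 and chr14:57098600-57104702 of mm10. The gap between them measures 18600 bp. The window with the most astrocyte fragments at any of the 5 genes lay in that gap, 17.6 kb downstream of the Gjb6 start, and the window with the largest stroke-to-sham ratio among the astrocyte windows lay next to it. Gja1 (chr10:56377330-56402513, plus strand) was open at its start and at one of its alternative first exons further downstream. The sequences of these windows are printed because the results below turn on them, together with the promoters of Gja1, Gjb6 and Gjd2 (250 bases upstream of the start) and the most open window near Gjc3 (chr5:137953461-137963098, minus strand). The printed Gja1 promoter ends at chr10:56377299, so it does not adjoin the gene start at chr10:56377330. Those of Gjb6 and Gjd2 adjoin their gene starts. Gjd2 lies at chr2:114009601-114013619 on the minus strand, and its start overlaps the noncoding gene A530058N18Rik on the other strand. All sequences are from the RefSeq copy of the mm10 assembly, windows on the plus strand and promoters on the strand of their gene. Promoters were found for 5 of 5 connexins. Capitals mark matches to 5 motifs searched on both strands. The motif of the AP-1 factors was TGANTCA. That of the STAT factors was TTCNNNGAA. The GC box, bound by factors such as Sp1, was GGGCGG. The TATA box of core promoters was TATAAA. The motif of the SOX factors was ACAATG. No match overlapped another.
Window between Gjb2 and Gjb6, next to a UTR of Gm4491, chr14:57115884-57116183: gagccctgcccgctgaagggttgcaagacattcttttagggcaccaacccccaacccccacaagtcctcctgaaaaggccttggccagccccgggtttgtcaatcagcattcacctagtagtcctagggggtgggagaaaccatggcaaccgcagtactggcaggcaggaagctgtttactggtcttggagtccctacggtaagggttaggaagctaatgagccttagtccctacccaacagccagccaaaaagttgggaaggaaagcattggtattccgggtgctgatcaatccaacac
Window chosen for its stroke-to-sham ratio between Gjb2 and Gjb6, intergenic, chr14:57118400-57118699: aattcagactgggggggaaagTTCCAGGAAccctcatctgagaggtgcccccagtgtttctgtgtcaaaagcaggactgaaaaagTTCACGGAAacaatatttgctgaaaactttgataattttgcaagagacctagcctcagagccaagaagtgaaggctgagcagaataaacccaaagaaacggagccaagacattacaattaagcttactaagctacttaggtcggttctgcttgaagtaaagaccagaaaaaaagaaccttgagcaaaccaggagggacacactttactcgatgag
Gjb6 promoter, chr14:57133612-57133861: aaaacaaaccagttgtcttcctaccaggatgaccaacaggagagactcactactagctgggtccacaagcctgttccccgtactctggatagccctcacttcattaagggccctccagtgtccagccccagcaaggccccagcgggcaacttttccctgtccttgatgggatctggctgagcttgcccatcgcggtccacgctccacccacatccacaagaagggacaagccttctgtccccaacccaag
Gja1 promoter, chr10:56377050-56377299: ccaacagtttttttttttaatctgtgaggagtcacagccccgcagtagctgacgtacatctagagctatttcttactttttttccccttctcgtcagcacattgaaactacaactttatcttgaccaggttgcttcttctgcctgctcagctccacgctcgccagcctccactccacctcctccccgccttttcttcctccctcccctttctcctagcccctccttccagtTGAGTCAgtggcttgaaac
Bases before an alternative first exon of Gja1, inside an exon of a noncoding Gja1 transcript, chr10:56378788-56379087: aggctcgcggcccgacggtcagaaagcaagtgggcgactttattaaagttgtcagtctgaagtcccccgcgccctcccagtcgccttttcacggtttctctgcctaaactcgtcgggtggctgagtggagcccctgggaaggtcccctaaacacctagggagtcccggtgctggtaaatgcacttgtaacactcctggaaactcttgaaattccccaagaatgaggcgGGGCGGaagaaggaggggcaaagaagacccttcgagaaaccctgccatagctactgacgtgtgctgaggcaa
Gjc3 upstream window, intergenic, chr5:137966561-137966860: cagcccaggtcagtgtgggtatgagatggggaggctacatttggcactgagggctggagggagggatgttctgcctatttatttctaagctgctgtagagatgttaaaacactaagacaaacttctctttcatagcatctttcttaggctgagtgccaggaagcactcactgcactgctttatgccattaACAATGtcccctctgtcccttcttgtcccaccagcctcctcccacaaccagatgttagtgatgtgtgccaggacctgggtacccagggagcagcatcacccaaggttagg
Gjd2 promoter, chr2:114013620-114013869: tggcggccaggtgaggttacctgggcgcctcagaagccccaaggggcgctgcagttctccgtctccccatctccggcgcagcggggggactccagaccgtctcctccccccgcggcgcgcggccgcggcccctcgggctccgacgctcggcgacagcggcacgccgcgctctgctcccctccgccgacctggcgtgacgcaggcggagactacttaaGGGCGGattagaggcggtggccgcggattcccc

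The window of higher stroke signal held 2 STAT matches, TTCCAGGAA from base 22 and TTCACGGAA from base 86 of the printed sequence. At least 1 such match stood in 7.61%, and at least 2 in 0.387%, of the middle 300 bases of 28677 windows with 30 or more astrocyte fragments. The window beside it and the Gjb6 promoter held none of the 5 motifs. The Gja1 promoter held 1 AP-1 match, TGAGTCA from base 232, as did 6.75% of 32851 promoters. A GC box stood before the alternative Gja1 exon and in the Gjd2 promoter, against 37.5% of windows and 32.7% of promoters. The Gjc3 window held 1 SOX match, found in 9.59% of windows. A match describes letters only and does not show that a factor was bound.

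In the classes, Gja1 and Gjb6 were most open relative to other nuclei in astrocyte-gated nuclei, Gjb2 in VLMC-gated and then astrocyte-gated nuclei, Gjc3 in oligodendrocyte-gated and Gjd2 in Lhx6 interneuron-gated nuclei. The levels of all 5 in each class and library are drawn in the plot of connexin fragments by class. The classes were checked on genes named for them in textbooks: Slc1a2, the main glutamate transporter of astrocytes, was at 488 CPM in astrocyte-gated nuclei against 131 in all kept nuclei, and Mog of the myelin sheath at 45.9 CPM in oligodendrocyte-gated nuclei against 12.2. Both genes were used in the gate, so these values describe it and do not test it. When nuclei were gated on every other marker, the markers left out were 2.84-fold and 2.56-fold higher in astrocyte-gated nuclei than in all kept nuclei in the 2 splits of the list. In glutamatergic neuron-gated nuclei the same check gave 1.41-fold and 1.44-fold and in OPC-gated nuclei 1.61-fold and 1.41-fold, so these 2 classes were the least sharp. Mural and ependymal gates did not reach 1.3-fold in this check and are not reported.

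**Figure D1:**
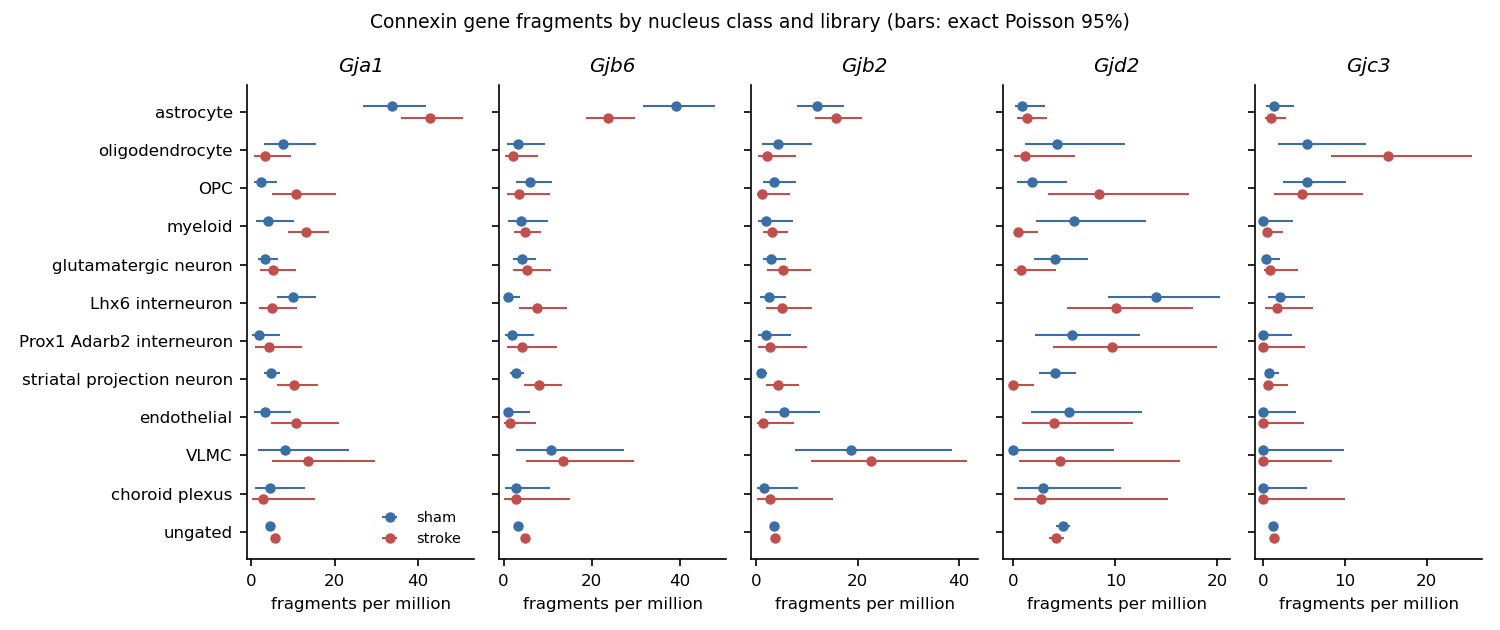
Level in CPM, fragments for each 1000000 of the same nuclei, at the 5 connexin genes (x axis, a panel for each gene) in 11 marker-gated classes and in ungated nuclei (y axis), for the sham and stroke libraries, with exact Poisson 95% intervals as bars. Gja1 and Gjb6 stand far to the right in astrocyte-gated nuclei, and Gjb2 in VLMC-gated and astrocyte-gated nuclei. Gjd2 is highest in Lhx6 interneuron-gated nuclei, in stroke close to Prox1 Adarb2 interneurons (10.1 against 9.68). Gjc3 is highest in oligodendrocyte-gated nuclei, in sham level with OPC-gated nuclei (5.37 against 5.36).

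Gja1 reached 33.7 CPM in the 227 sham astrocyte-gated nuclei (79 fragments, exact Poisson 95% interval 26.7 to 42.0) and 43.0 CPM in the 322 stroke ones (134 fragments, 36.0 to 50.9). Both libraries therefore placed it high in this class. Over both libraries the astrocyte-gated level was 39.0 CPM against 5.85 in all other kept nuclei, a ratio of 6.66 (exact conditional 95% interval 5.69 to 7.78). Among all 20037 genes with at least 50 fragments, 7.14% were at least 2-fold higher in astrocyte-gated nuclei and 11.3% at least 2-fold lower. Of the 5 connexins, Gja1, Gjb6 and Gjb2 were past 2-fold higher and Gjd2 was past 2-fold lower. The next classes for Gja1 were VLMC at 11.0 CPM (5.04 to 20.9), myeloid at 10.3 CPM (7.13 to 14.4) and Lhx6 interneurons at 8.16 CPM (5.33 to 11.95), whose intervals overlapped each other but not that of astrocyte-gated nuclei. The order of these classes differed between libraries: myeloid-gated nuclei were at 3.97 CPM in sham (4 fragments) and 13.1 in stroke (30 fragments), and Lhx6 interneurons at 10.0 and 5.05 CPM. Its lowest level was 2.82 CPM in Prox1 Adarb2 interneurons (5 fragments, 0.915 to 6.58). Intervals cover counting error of fragments only, not differences between animals or libraries.

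Gjb6 was also highest in astrocyte-gated nuclei, but its level there differed between the libraries. It was at 39.3 CPM in sham astrocyte-gated nuclei (92 fragments, 31.7 to 48.2) and at 23.7 CPM in stroke ones (74 fragments, 18.6 to 29.8). The 2 intervals do not overlap, but they treat fragments of the same nucleus as independent. The 92 sham fragments lay in 55 nuclei and the 74 stroke ones in 64. The share of these nuclei with a Gjb6 fragment was 24.2% in sham (55 of 227, exact binomial 18.8 to 30.3) and 19.9% in stroke (64 of 322, 15.7 to 24.7), with intervals that overlap, and thinned to 4000 fragments per nucleus it was 12.3% and 9.90%. Over both libraries its level was 30.4 CPM against 4.13 in all other nuclei, a ratio of 7.36 (6.14 to 8.79), close to that of Gja1. VLMC-gated nuclei came next at 12.3 CPM on 10 fragments (5.88 to 22.5), and the other classes lay between 1.19 CPM in endothelial and 5.16 CPM in OPC-gated nuclei with overlapping intervals. Per kb of counted interval, Gjb6 was the most open of the 5 in sham astrocyte-gated nuclei at 3.19 CPM per kb. Gjb2 was at 1.47 and Gja1 at 1.24. Cut sites, which count both ends of each fragment, were also scaled to all fragments of these nuclei. Within 1 kb of the start they were at 32.9 for Gjb6, 21.3 for Gja1 and 11.9 for Gjb2. These values are on another scale than the fragment levels in CPM. They were 42.3%, 31.6% and 50% of the cut sites in the counted intervals of Gjb6, Gja1 and Gjb2. The order of Gja1 and Gjb2 thus depended on the measure. In stroke ones Gjb6 and Gjb2 were level, at 1.93 and 1.94 CPM per kb, and Gja1 was at 1.58.

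Gjb2 was open in astrocyte-gated and in VLMC-gated nuclei, the fibroblast-like cells of vessels and meninges. In astrocyte-gated nuclei it was at 11.9 CPM in sham (28 fragments, 7.94 to 17.3) and 15.7 CPM in stroke (49 fragments, 11.6 to 20.8). In VLMC-gated nuclei it was at 18.7 CPM in sham on 7 fragments (7.52 to 38.6) and 22.6 CPM in stroke on 10 (10.9 to 41.6). The VLMC value was thus the highest of any class, in each library, and VLMC are neither glia nor neurons, although its interval overlapped that of astrocyte-gated nuclei. The ratio over all other nuclei was 3.95 in astrocyte-gated nuclei (3.06 to 5.05) and 5.32 in VLMC-gated nuclei (3.08 to 8.61), and 6.16% of all genes were at least 2-fold higher in the latter. Gjb6 also passed 2-fold there, at 2.35 (1.12 to 4.34). All other classes lay between 1.78 and 3.72 CPM.

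Gjd2 had the opposite pattern. It was at 14.0 CPM in sham Lhx6 interneuron-gated nuclei (28 fragments, 9.31 to 20.2) and at 10.1 CPM in stroke ones (12 fragments, 5.22 to 17.6), the highest class in both libraries. Lhx6 marks interneurons of the medial ganglionic eminence, such as parvalbumin and somatostatin cells. The level over both libraries was 12.6 CPM against 4.09 in all other nuclei, a ratio of 3.07 (2.17 to 4.24), with 2.18% of all genes at least 2-fold higher in that class. Prox1 Adarb2 interneurons followed at 7.33 CPM (3.90 to 12.5), which overlaps it. Glutamatergic neurons at 2.97 CPM (1.54 to 5.20) and striatal projection neurons at 3.02 CPM (1.89 to 4.57) were near or below the 4.30 CPM of all kept nuclei. In astrocyte-gated nuclei only 6 fragments fell on Gjd2, 1.10 CPM, which was 0.247 of the level in all other nuclei (0.0903 to 0.541).

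Gjc3 was the least open of the 5 over all kept nuclei, at 1.35 CPM (171 fragments), and was concentrated in the oligodendrocyte lineage. Oligodendrocyte-gated nuclei were at 5.37 CPM in sham on 5 fragments (1.74 to 12.5) and at 15.2 CPM in stroke on 14 (8.31 to 25.5). OPC-gated nuclei, the precursors, were at 5.36 CPM in sham on 9 fragments and at 4.78 CPM in stroke on 4. Over both libraries the ratio to all other nuclei was 8.39 in oligodendrocyte-gated nuclei (4.92 to 13.6) and 4.05 in OPC-gated nuclei (2.11 to 7.12). Of all genes, 3.97% and 1.45% were at least 2-fold higher in these 2 classes, and Gjc3 was the only connexin of the 5 among them. No Gjc3 fragment was found in the endothelial, VLMC, choroid plexus or Prox1 Adarb2 interneuron classes, where a count of 0 allows up to 1.79, 3.68, 2.85 and 1.69 CPM (3 fragments of each class). These limits are above the level in all kept nuclei, so a lower level was not detectable at this depth.

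The share of nuclei with at least 1 fragment follows depth, so it is given thinned to 4000 fragments per nucleus, with 61 shallower astrocyte-gated nuclei left out. Of 488 astrocyte-gated nuclei, 15.4% held a Gja1 fragment, 10.9% a Gjb6 fragment and 4.10% a Gjb2 fragment, and at full depth the same nuclei gave 30.7%, 23.4% and 11.3%. In oligodendrocyte-gated nuclei, which should lack Gja1, the thinned share was 1.46%, and in OPC-gated nuclei 0.966%, while VLMC-gated nuclei were at 5.71% and striatal projection neurons at 3.50%. Gjd2 was found in 3.77% of 239 Lhx6 interneuron-gated nuclei thinned and 12.6% at full depth, against 0.615% thinned in astrocyte-gated nuclei. Gjc3 was found in 4.38% of 137 oligodendrocyte-gated nuclei thinned and 9.49% at full depth, against 0.410% thinned in astrocyte-gated nuclei. Other classes had intervals that overlap these shares. For Gjd2, Prox1 Adarb2 interneurons were at 4.17% (1.54 to 8.85) and choroid plexus at 2.50% (0.304 to 8.74). For Gjc3, OPC-gated nuclei were at 3.86% (1.68 to 7.47) and Lhx6 interneurons at 1.67% (0.458 to 4.23). For Gjb2, VLMC-gated nuclei were at 5.71%, above astrocyte-gated nuclei. At full depth Gjb6 was seen in 24.5% of astrocyte-gated nuclei with a Gja1 fragment and in 20.6% of those without, while the nuclei with Gja1 were deeper (median 10691 against 8516 fragments).

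Stroke and sham were first compared over all kept nuclei. Gja1 rose from 5.99 CPM on 440 fragments to 9.09 on 480, a stroke-to-sham ratio of 1.52 (1.33 to 1.73). Gjb6 went from 4.40 to 6.48 CPM, a ratio of 1.47 (1.26 to 1.72), and Gjb2 from 3.50 to 4.75 CPM, a ratio of 1.36 (1.14 to 1.62). The 3 astrocyte connexins were thus higher in the stroke library with intervals above 1. Of 20037 genes, 8.99% were at least 1.5-fold higher and 0.299% at least 1.5-fold lower, and the median of all genes was -0.04 on the log2 scale. Only Gja1 passed 1.5-fold, 1 of 5 connexins. Gjd2 went the other way, from 4.76 to 3.66 CPM, a ratio of 0.767 (0.640 to 0.918), lower than for all but 2.44% of genes. Gjc3 was at 1.24 and 1.52 CPM, a ratio of 1.22 whose interval included 1 (0.895 to 1.67).

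These library values also move with the makeup of the nuclei. Astrocyte-gated nuclei were 3.33% of kept sham and 6.37% of kept stroke nuclei, and glutamatergic, Lhx6 interneuron and striatal projection neuron-gated nuclei were all a smaller share of the stroke library. In a whole library, more nuclei of a class and more fragments per nucleus cannot be told apart, and the part of the class shares in these ratios was not tested. The ratio of Gja1 was 1.29 when only 1 kb either side of the start was counted and 1.78 over all called barcodes.

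**Figure D2:**
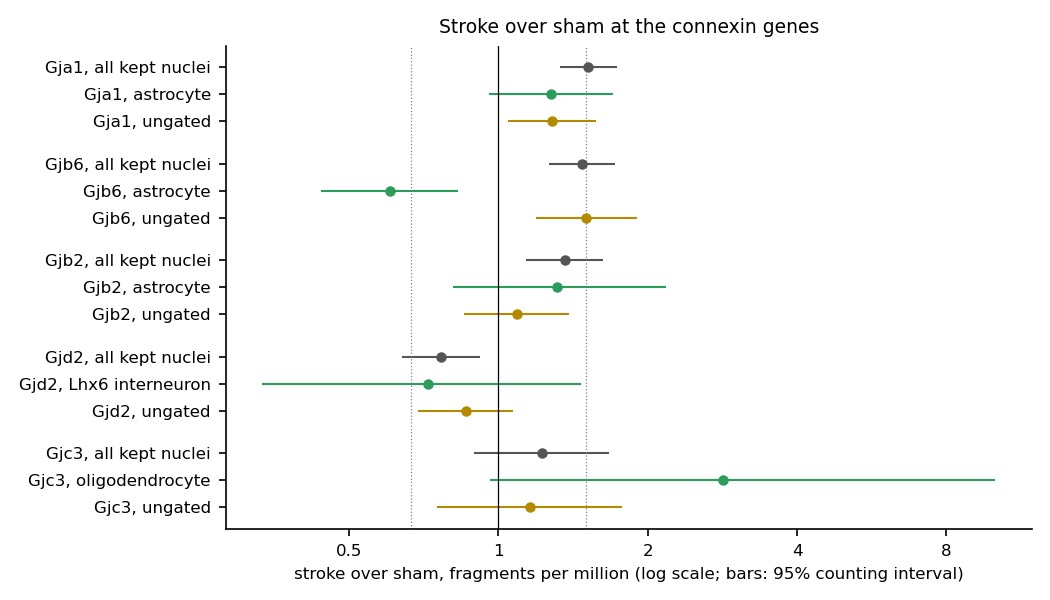
Ratio of CPM in stroke over sham (x axis, log scale) for each connexin in all kept nuclei, in the class where it was examined and in ungated nuclei, with exact conditional 95% counting intervals. Dotted lines mark 1.5-fold in either direction. Gjb6 lies at 0.604 in astrocyte-gated nuclei and at 1.51 in ungated nuclei.

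Within astrocyte-gated nuclei Gjb6 was lower in the stroke library, while the intervals of Gja1 and Gjb2 included 1. Gja1 was at 33.7 CPM in sham and 43.0 in stroke, a ratio of 1.27 (0.958 to 1.71), and Gjb2 at 11.9 and 15.7 CPM, a ratio of 1.31 (0.810 to 2.17). Gjb6 fell from 39.3 to 23.7 CPM, a ratio of 0.604 (0.439 to 0.830), with an interval below 1. That interval treats fragments of the same nucleus as independent. Of 14041 genes with at least 50 fragments in this class, 6.97% were at least 1.5-fold higher and 7.14% at least 1.5-fold lower in stroke. Of the 3 connexins with that depth, Gjb6 passed 1.5-fold lower and none passed 1.5-fold higher. The ratio of Gjb6 was below that of all but 3.91% of these genes.

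Gjb6 was also set against Gja1 and Gjb2 in the same nuclei, a comparison that library scaling does not enter. For each Gja1 fragment there were 1.16 Gjb6 fragments in sham and 0.552 in stroke astrocyte-gated nuclei, an odds ratio of 0.475 (exact conditional 95% interval 0.307 to 0.732). For each Gjb2 fragment there were 3.29 and 1.51 Gjb6 fragments, an odds ratio of 0.461 (0.253 to 0.830). In ungated nuclei the odds ratio of Gjb6 to Gja1 was 1.17 (0.858 to 1.60). Against Gja1 the odds ratio was 0.884 with even-numbered markers (0.531 to 1.47) and 0.783 thinned with the gate at full depth (0.377 to 1.62). Against Gjb2 it was 0.385 thinned with the gate at full depth (0.121 to 1.10) and 1.05 when thinned nuclei were gated again (0.306 to 3.53), which changed the depth and the class members together. The size of the fall differed between settings of depth and gate, and the cause was not tested. Each thinned value rests on a single random draw. Thinned to 4000 fragments per nucleus, with nuclei gated at full depth, the ratio of Gjb6 was 0.724 on 34 sham and 37 stroke fragments (0.442 to 1.19). With the gate drawn again on the thinned fragments it was 0.907 on 28 and 33 (0.531 to 1.56), and gated at full depth on every other marker it was 0.770 (0.545 to 1.09) or 0.729 (0.505 to 1.05), all intervals that include 1. For Gja1, promoter fragments alone gave 0.838 and the even-numbered markers gave 0.825, and thinning with the gate at full depth gave 0.927, all below 1.

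Other lists in the same nuclei give the setting. The 24 astrocyte markers of the gate summed to 4703 CPM in sham and 4472 in stroke, a ratio of 0.951. Of 12 reactive astrocyte genes, 7 had enough fragments over both libraries together to be compared. Of these 7 genes, 6 passed 1.5-fold higher, against 6.97% of all genes. Among them were the intermediate filament genes Gfap (64.9 to 162 CPM, ratio 2.49) and Vim (12.8 to 58.0 CPM, ratio 4.53). Serpina3n, Osmr, Cd44 and Cp also passed, and S1pr3 was at 26.5 and 34.3 CPM, with an interval of the ratio that included 1 (0.940 to 1.80). The median ratio of the 7 compared genes was 1.40 on the log2 scale against -0.06 for all genes. A gene higher in stroke could reach the fragment limit through that library, and the other genes of the list were not compared. The count of 6 and this median are therefore descriptions. Markers of other cells changed less: the 14 glutamatergic neuron markers summed to 440 CPM in sham and 319 in stroke astrocyte-gated nuclei and the 24 oligodendrocyte markers to 426 and 512 CPM, and their part in the Gjb6 result was not tested.

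In ungated and in striatal projection neuron-gated nuclei Gjb6 was higher in the stroke library. In ungated nuclei it went from 3.20 CPM on 142 fragments to 4.82 on 159, a ratio of 1.51 (1.19 to 1.90). Gja1 was at 1.28 (1.05 to 1.57), Gjb2 at 1.09 (0.853 to 1.39), Gjd2 at 0.861 (0.689 to 1.07) and Gjc3 at 1.16 (0.751 to 1.77). Of 19304 genes, 6.49% were at least 1.5-fold higher and 0.373% at least 1.5-fold lower, and Gjb6 was the 1 connexin of 5 past 1.5-fold. The astrocyte marker list was 1.12-fold higher in stroke in ungated nuclei, at 1147 and 1288 CPM. In striatal projection neuron-gated nuclei Gjb6 had 15 fragments in each library, 2.76 and 8.07 CPM, a ratio of 2.92 (1.33 to 6.41), and Gja1 25 and 19 fragments, a ratio of 2.22 (1.16 to 4.19). Of all genes with enough fragments in that class, 5.75% were at least 1.5-fold higher and 7.74% at least 1.5-fold lower, and none of the 5 connexins had enough fragments to be among them. Gja1 had 4 sham and 30 stroke fragments in myeloid-gated nuclei, a ratio of 3.29 (1.16 to 12.9), and 4 and 9 in OPC-gated nuclei, a ratio of 4.52 (1.26 to 20.1). In Lhx6 interneuron-gated nuclei its ratio was 0.505 (0.166 to 1.303), and in the oligodendrocyte, glutamatergic neuron, Prox1 Adarb2 interneuron and endothelial classes it lay between 0.433 and 3.30 with intervals that included 1. The astrocyte list was not higher in striatal projection neuron-gated nuclei, at 1274 and 1215 CPM. It was higher in stroke in Lhx6 interneuron-gated nuclei, at 970 and 1206 CPM, a ratio of 1.24 (1.16 to 1.33). In oligodendrocyte-gated nuclei it was at 1044 and 1250 CPM, a ratio of 1.20 (1.10 to 1.31). The part of this list in the connexin ratios was not tested. In OPC-gated nuclei Gjb6 had 10 sham and 3 stroke fragments, a ratio of 0.602 (0.107 to 2.34), and in oligodendrocyte-gated nuclei 3 and 2, a ratio of 0.674 (0.0563 to 5.89). In Lhx6 interneuron-gated nuclei it had 2 and 9, a ratio of 7.57 (1.57 to 72.0), and in glutamatergic, Prox1 Adarb2 interneuron, myeloid and endothelial-gated nuclei the ratio lay between 1.21 and 2.18 with intervals that included 1. Gjb2 had 5 and 8 fragments in striatal projection neuron-gated nuclei, a ratio of 4.67 (1.35 to 18.1). None of the 5 connexins had 50 fragments in a named class other than astrocyte-gated nuclei, so these ratios rest on few fragments.

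Gjd2 and Gjc3 could be compared only on small counts. In Lhx6 interneuron-gated nuclei Gjd2 had 28 sham and 12 stroke fragments, a ratio of 0.721 (0.334 to 1.46). In striatal projection neuron-gated nuclei it had 22 fragments in sham, 4.05 CPM, and 0 of 1859778 in stroke. A count of 0 there allows 1.61 CPM (3 fragments), and against that floor the stroke level was at least 2.51-fold lower in these nuclei. The exact interval of the ratio, which also takes in the error of the sham count, ran from 0 to 0.533. In glutamatergic neuron-gated nuclei Gjd2 had 11 and 1 fragments, a ratio of 0.184 whose interval included 1 (0.00427 to 1.26). Other classes went the other way, with 6 and 7 fragments in Prox1 Adarb2 interneuron-gated nuclei, a ratio of 1.69 (0.488 to 6.10), and 3 and 7 in OPC-gated nuclei, a ratio of 4.68 (1.07 to 28.1). Myeloid-gated nuclei held 6 and 1, a ratio of 0.0731 (0.00159 to 0.603), and oligodendrocyte and endothelial-gated nuclei were at 0.253 and 0.742 with intervals that included 1. Gjc3 in oligodendrocyte-gated nuclei had 5 and 14 fragments, a ratio of 2.83 with an interval that just included 1 (0.964 to 10.0), and in OPC-gated nuclei 9 and 4, a ratio of 0.892 (0.201 to 3.20). The 24 oligodendrocyte markers were at 2268 and 2594 CPM in oligodendrocyte-gated nuclei, a ratio of 1.14.

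Along the chromosome, the astrocyte signal at Gjb6 and Gjb2 was not spread evenly. Windows of 500 bp were taken where the cut sites of astrocyte-gated nuclei, summed over both libraries, were densest, so their height is a description. The window at chr14:57115800-57116299 lay in the gap between the genes and overlapped a UTR of another gene, Gm4491. Its link to any of these genes was not tested. It held 59 sham and 88 stroke fragments, 25.2 and 28.2 CPM. It was 20.6-fold denser in astrocyte-gated than in all other kept nuclei, and only 7.18% of the 28677 windows with 30 or more fragments held more fragments. Those windows lay on a fixed grid, which favours the rank of this window, placed where cut sites were densest. Its stroke-to-sham ratio was 1.12 (0.797 to 1.59). It was therefore the main astrocyte peak of the locus in both libraries and differed between them by less than counting error.

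**Figure D3:**
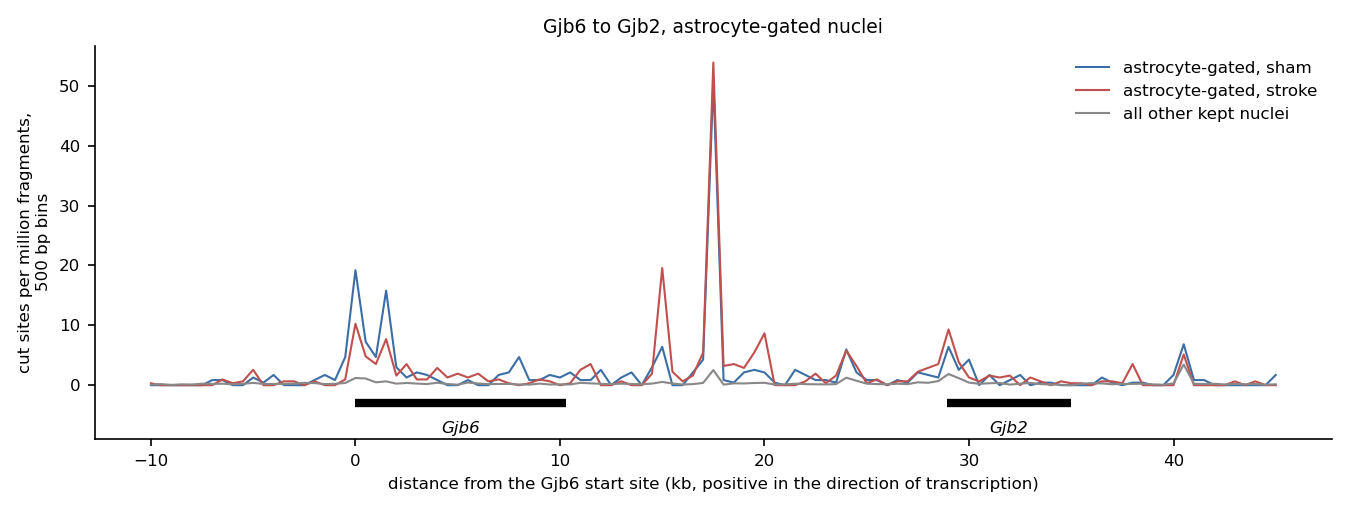
Cut sites per 1000000 fragments in 500 bp bins (y axis) by distance from the Gjb6 start in kb (x axis, positive in the direction of transcription) in astrocyte-gated nuclei of the sham and stroke libraries and in all other kept nuclei. Black bars mark the genes. The tallest bin stands between the genes in both libraries, the bin 15.1 kb from the start is taller in stroke, and the bins at the Gjb6 start are taller in sham.

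Other windows of the locus had fewer fragments. At the Gjb6 start (chr14:57133300-57133799) there were 24 sham and 19 stroke fragments, 10.2 and 6.09 CPM, a ratio of 0.595 (0.308 to 1.13). The window 1.36 kb inside the gene had 22 and 18, a ratio of 0.615 (0.311 to 1.20), and the one 32.0 kb upstream 19 and 13, a ratio of 0.514 (0.233 to 1.10). Each of these intervals includes 1. The window at chr14:57118300-57118799, 15.1 kb downstream of the Gjb6 start, had 8 sham and 34 stroke fragments, 3.41 and 10.9 CPM, a ratio of 3.19 (1.45 to 7.99). It had the largest ratio of these windows and reached 30 fragments only through the stroke library, so its ratio and interval are a description. Its sequence is the one printed above with 2 STAT matches, and it was 23.2-fold denser in astrocyte-gated than in other nuclei. Among all such windows 15.6% were at least 1.5-fold higher, 15.2% at least 1.5-fold lower and 3.71% at least 3-fold higher in stroke, and 14.7% were at least 10-fold denser than in other nuclei. The window was chosen for its printed sequence after its values were seen. In ungated nuclei it had 9 and 13 fragments, a ratio of 1.94 (0.768 to 5.15).

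The start of Gjb2 (chr14:57104300-57104799) was a weaker astrocyte window. It held 9 sham and 16 stroke fragments, a ratio of 1.34 (0.556 to 3.43), and was 4.35-fold denser than in other nuclei. In VLMC-gated nuclei the densest window of the locus lay at the Gjb2 start (chr14:57104500-57104999), with 3 sham and 6 stroke fragments and 10.6-fold the density of other nuclei. The main astrocyte window between the genes held 0 fragments in VLMC-gated nuclei, which allows up to 3.68 CPM, against 26.9 in astrocyte-gated nuclei. The classes in which Gjb2 was most open thus differed in where the locus was open.

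**Figure D4:**
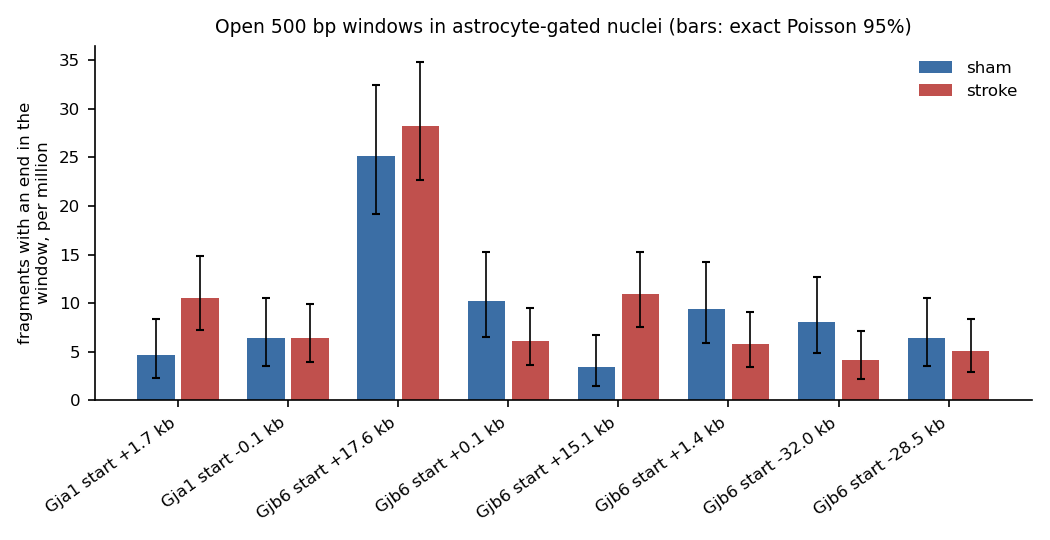
Fragments with an end in a 500 bp window, per 1000000 fragments (y axis), for the 8 windows at Gja1 and at Gjb6 and Gjb2 with 30 or more fragments in astrocyte-gated nuclei (x axis, named by distance from the Gja1 or Gjb6 start), with exact Poisson 95% intervals. The stroke bar is higher at Gja1 +1.75 kb (10.6 against 4.69) and Gjb6 +15.1 kb (10.9 against 3.41), and lower at the Gjb6 start (6.09 against 10.2).

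At Gja1 the start and the alternative first exon were both open. The start window (chr10:56377030-56377529) held 15 sham and 20 stroke fragments, 6.40 and 6.41 CPM, a ratio of 1.002 (0.488 to 2.103). The window at the alternative exon (chr10:56378830-56379329), 1.75 kb downstream, held 11 and 33 fragments, 4.69 and 10.6 CPM, a ratio of 2.25 (1.11 to 4.94). This window was placed on cut sites summed over both libraries and reached the fragment limit for windows only through the stroke library. In sham alone the start window held more fragments, 15 against 11. The ratio of 2.25 and its interval are therefore a description. The window at the alternative exon was 16.0-fold denser in astrocyte-gated than in other nuclei, and the start window 13.1-fold. The difference between the ratios of these 2 windows was not tested, and their intervals overlap. In ungated nuclei the second window had 15 and 18 fragments, a ratio of 1.61 (0.768 to 3.44). Scaling to promoter fragments in place of all fragments moved the 2.25 to 2.45. The higher stroke signal did not extend to the window directly upstream of the alternative exon window (chr10:56378330-56378829). That window held 11 sham and 10 stroke fragments in astrocyte-gated nuclei, a ratio of 0.683 (0.260 to 1.77). The remaining Gja1 windows had ratios from 0.470 to 0.966, with intervals that include 1. All of these were below the fragment limit for windows.

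**Figure D5:**
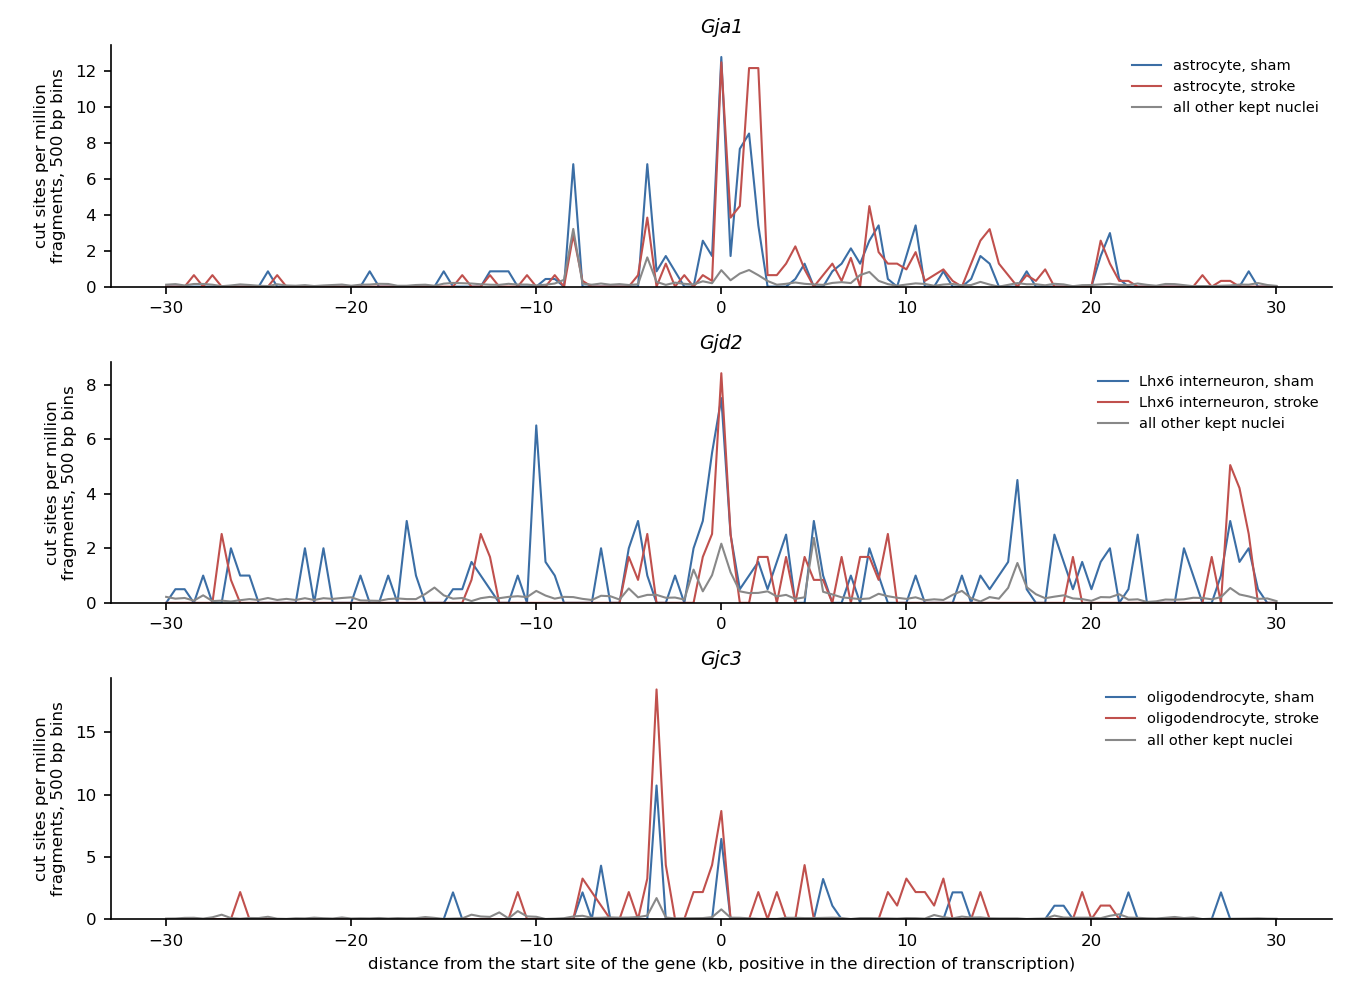
Cut sites per 1000000 fragments in 500 bp bins (y axis) by distance from the start of Gja1, Gjd2 and Gjc3 in kb (x axis, positive in the direction of transcription), in the class named in each panel and in all other kept nuclei. Gja1 shows bins at the start and at 1.75 kb, Gjd2 is highest at its start, and Gjc3 is highest 3.61 kb upstream of its start. Single bins of Gjd2 and Gjc3 rest on few fragments.

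At Gjc3 the densest window in oligodendrocyte-gated nuclei lay 3.61 kb upstream of the start (chr5:137966461-137966960), with 5 sham and 10 stroke fragments, a ratio of 2.02 (0.630 to 7.54). It was 8.99-fold denser than in other nuclei. OPC-gated nuclei held 6 and 8 fragments in it. Astrocyte-gated nuclei held 0 in sham and 7 in stroke, so the window was not limited to the oligodendrocyte lineage in the stroke library. The start of Gjc3 held 3 and 6 fragments. At Gjd2 the start window (chr2:114013401-114013900) held 8 and 6 fragments in Lhx6 interneuron-gated nuclei, and an intergenic window 35.2 kb downstream (chr2:113978201-113978700) 12 and 2, a ratio of 0.280 (0.0305 to 1.26).

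Other connexins and pannexins were read from a list of 18 genes. Over all kept nuclei 1 of the 18 was at least 1.5-fold higher in stroke, Gjd4 at 2.14 (1.51 to 3.05), and 1 was at least 1.5-fold lower, Gja6 at 0.601 (0.503 to 0.716), and the median log2 ratio was -0.11. Over all genes 8.99% were higher and 0.299% lower, so 1 higher gene of 18 is near the background. In astrocyte-gated nuclei 3 of the 18 had enough fragments, of which 1 was higher and 1 lower, against 6.97% and 7.14% of all genes. Gja5, an arterial connexin whose counted interval is 175 kb long, rose from 41.4 to 70.9 CPM, a ratio of 1.71 (1.34 to 2.20). Panx1, a channel protein related in shape to connexins, was at 1.01 (0.688 to 1.48), and Panx2 fell from 22.6 to 10.6 CPM, a ratio of 0.468 (0.293 to 0.736). In oligodendrocyte-gated nuclei 3 of the 18 were at least 2-fold higher than in all other nuclei, against 3.97% of all genes, 2 of them with an interval above 1, and 4 were at least 2-fold lower, against 6.57% of all genes. Among the higher ones Gjb1, which encodes the oligodendrocyte and Schwann cell connexin Cx32, was at 2.02-fold (1.24 to 3.11).

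Of 6 genes whose proteins bind connexins or move them, none passed 1.5-fold in either direction over all kept nuclei, nor did any of the 5 with enough fragments in astrocyte-gated nuclei. With 8.99% of all genes higher and 0.299% lower over all kept nuclei, and 6.97% and 7.14% in astrocyte-gated nuclei, these counts of 0 are near the background. The scaffold gene Tjp1, whose product ZO-1 binds the tail of Cx43, was at 240 CPM in sham and 307 in stroke astrocyte-gated nuclei, a ratio of 1.28 (1.15 to 1.42). The ubiquitin ligase gene Nedd4 was at 1.24 (1.05 to 1.46).

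Genes with the most similar pattern were found by Pearson correlation of log2(CPM + 1) over 20 class and library groups of at least 50 nuclei, among 16270 genes with at least 500 fragments (16271 for Gjc3). The groups share 2 libraries and differ in depth, and the values are descriptions. Gja1 was most like Hs3st3b1 (r = 0.856), Rapgef3 (0.846) and Tinf2 (0.835). Gjb6 was most like Ampd3 (0.920), Gm973 (0.884) and Teddm2 (0.822), and Gjb2 most like Igsf8 (0.831) and Nabp2 (0.812). Gjd2 was most like Herc1 (0.728), Disp2 (0.726) and Pgm2l1 (0.724). Gjc3 was most like Tuba1a (0.832), Oas1h (0.818) and 3110009E18Rik (0.773).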

How the data were processed

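Nuclei of 1 sham and 1 stroke library were profiled by scATAC-seq. Cell Ranger ATAC 2.1.0, patched for the sequencer, was run by the authors on the mm10 build. The deposited values are unnormalized counts: fragments with their barcodes, and a summary for every barcode that includes how many fragments fell in peaks. Fragment ends in such lists are already moved to the cut sites. The study's cell labels and scRNA-seq data were not used here. Fragments overlapping each gene body plus 2 kb upstream were counted in Python 3.11.15 with numpy 2.4.6, pandas 2.3.3 and scipy 1.17.1, on the GENCODE gene models of the same build, and divided by all fragments of the same nuclei. The methods' filter on the share of fragments in peaks was applied; their limits on fragments in peaks were tried as an alternative, and their nucleosome, start site and blacklist filters were not applied. The kept nuclei differ from the study's set, which held more stroke nuclei than the 8740 stroke barcodes called cells here before any filter. The source of this difference was not resolved. No doublets were removed. A nucleus was gated where a marker list was at least 2-fold above expectation with a Poisson p under 0.0001 and no other list had a p under 0.001; nuclei with 2 such lists were mixed. Gate limits were set after class sizes had been seen. The connexins and all gene lists were chosen with earlier results of these data known. Named genes are the 5 connexins, the listed family, partner and reactive genes, and for each connexin the 3 genes of most similar pattern; some of these are not reported here. A gene was compared where it had at least 50 fragments in the comparison. With 1 library per group no test between them was possible, and no p-values are given. The counting scripts were tested on simulated data. Figures were drawn with matplotlib 3.10.9 and sequences read with pysam 0.24.0.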

Additional observations from a re-analysis of the deposited data

Results flagged for a closer look

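Gjb6 stood out because its stroke-to-sham ratio pointed in opposite directions in groups of nuclei. It was 0.604 in astrocyte-gated nuclei, 2.92 in striatal projection neuron-gated nuclei and 1.51 in ungated nuclei. The difference between these ratios was not tested, since each group is 1 library. The ratio in striatal projection neuron-gated nuclei rests on 15 fragments in each library.

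Gjd2 stood out among barcodes that were called cells but failed the peak filter and so entered no comparison above. In the 3686 such stroke barcodes it was at 3.62 CPM (128 fragments), and in the 162 sham barcodes at 0 of 1334500 fragments, where a count of 0 allows 2.25 CPM (3 fragments). The exact Poisson 95% upper limit of that count was 2.76 CPM. The same barcodes held Gja1 at 10.5 CPM in sham and 13.3 in stroke, and Gjc3 at 4.50 and 3.22 CPM.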

How the results depend on the processing

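Of 192 values under alternative settings for 28 results, 167 stayed within the counting interval and 25 moved outside it, and none of the moves turned a value whose interval excluded 1 to the other side of 1. Over all called barcodes the stroke-to-sham ratio was 1.78 for Gja1 and 1.70 for Gjc3, and with promoter fragments only it was 1.29 for Gja1. The ratio of astrocyte-gated over other nuclei for Gja1 was 5.16 over all called barcodes, 9.66 with promoter fragments only, 4.80 scaled to promoter fragments, 5.66 with odd-numbered and 5.37 with even-numbered markers. For Gjb6 it was 5.30 scaled to promoter fragments, 8.89 thinned and gated again and 9.34 with a gate of 3-fold, and for Gjb2 2.85, 2.60 and 5.10 in the same order. Gjd2 in Lhx6 interneuron-gated nuclei was at 2.06 with odd-numbered markers. Stroke over sham within a class moved for Gja1 to 0.838 with promoter fragments only and 0.825 with even-numbered markers, for Gjb6 to 0.907 and for Gjd2 to 2.23 (1 and 2 fragments) when thinned nuclei were gated again, which changes both depth and class members. With classes kept from full depth, an alternative chosen after seeing the data, thinning gave 0.927 for Gja1, 0.724 for Gjb6 and 0.963 for Gjd2. Thinned shares of nuclei were 15.4%, 10.9%, 4.10%, 3.77% and 4.38% for Gja1, Gjb6, Gjb2, Gjd2 and Gjc3. The Gjb6 ratio in astrocyte-gated nuclei lay between 0.501 and 0.907 over 14 alternatives. The Gjc3 ratio in oligodendrocyte-gated nuclei gave no value when thinned nuclei were gated again, and 3.51 (0.347 to 173) on 1 sham and 4 stroke fragments with classes kept. Leaving out the 42 barcodes kept in both libraries, chosen after seeing the data, moved no result. The causes of these moves were not tested. No paired analysis was possible because each group has 1 library. Leaving out a replicate was likewise not possible.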
